A study of Mus musculus with 8 samples.

Results

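Chemokines and chemokine receptors were followed in regenerating leg muscle. The set held every gene with a row naming that gene alone whose symbol was Ccl, Cxcl, Ccr or Cxcr with a number, together with Cx3cl1, Cx3cr1, Xcl1, Xcr1 and Ackr1 to Ackr4. These were 55 genes of the 19752 named by the array, and 40 of them were bright enough to be tested among 15007 genes. The mice were male C57BL/6 animals carrying Foxp3-Cre, labelled 10 weeks old and described for the series as 2 months old. Their tibialis anterior, a muscle of the shin, had been frozen for 8 seconds with a cold metal probe 8 days before it was taken. One group carried floxed ST2 (ST2 FL/Foxp3-Cre) and the other wild-type ST2 (ST2 WT/Foxp3-Cre), with 4 samples each, 1 array per sample. ST2 is the receptor for interleukin-33, and Foxp3-Cre acts in regulatory T cells, which are a small part of whole muscle. The floxed gene was not analysed here, so its deletion was not checked. The titles number the samples 1 to 4 within each genotype, and the labels leave unsaid whether each came from its own animal. The spread behind every p-value is that between these 8 samples and may be technical.

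Chemokines are small secreted proteins that direct the movement of white blood cells. They bind G protein-coupled receptors on those cells and are grouped by the spacing of their first cysteines into CC, CXC, CX3C and XC families. Atypical receptors bind chemokines without G protein signalling and so take up or move them. After muscle injury, neutrophils and then monocytes enter the tissue, the latter through Ccr2 and its ligands, and clear dead fibres while satellite cells rebuild them. Other chemokines, such as Cxcl12 and Cxcl13, are made by stromal cells and place lymphocytes and progenitors in tissues.

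Levels are log2 values of the probeset intensities that the authors deposited, and 1 unit is a doubling of intensity. Array medians lay between 185 and 189 intensity units. The tissue label was borne out by its markers, since all 7 mature fibre markers and all 5 markers of regenerating muscle were tested, with mean log2 levels of at least 8.17. Of 10 macrophage markers 10 were tested, and their summed intensity was 8816 to 13834 on flox arrays and 9750 to 12014 on WT arrays, lowest on flox array 4. Skin keratinocyte markers stood high on WT array 4, where the 4 tested markers had a centred mean of 1.57, against -0.42 to 0.01 on the other arrays. Levels of different genes are not set against each other, because each probeset has its own response. In whole tissue, fewer cells of a type and less RNA per cell cannot be told apart.

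The 40 tested members varied unevenly over the 8 arrays, and most of the large variation was among CC ligands. Among these 40 the range of log2 levels was widest for Ccl8 (2.51), Ccl3 (2.00), Ccl6 (1.97), Ccr2 (1.74) and Cxcl10 (1.54), and narrowest for Ccl19 (0.17). Flox array 2 gave the highest level of the 8 arrays for 16 of the 40 tested members, where the same array was highest for 14.5% of all genes tested. Flox array 1 was highest for 9 members (20.3% of all genes) and lowest for 8 (20.1%). Flox array 4 was highest for 11 (18.3% of all genes) and lowest for 13 (18.4%), whereas flox array 2 was lowest for 1 (14.4%). Of the inflammatory ligands, Ccl2 was lowest on WT array 4 (7.82, against 7.86 on flox array 4), Ccl12 on WT array 1 and Cxcl10 on WT array 3. Ccl3, Ccl6, Ccl7, Ccl8 and Ccl9 and the receptor Ccr2 all had their lowest level on flox array 4. The macrophage markers followed the same arrays, with centred means of 0.34, 0.38, 0.03 and -0.42 on flox arrays 1 to 4 and -0.16 to 0.08 on the WT arrays, and their part in these levels was not tested.

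**Figure D1:**
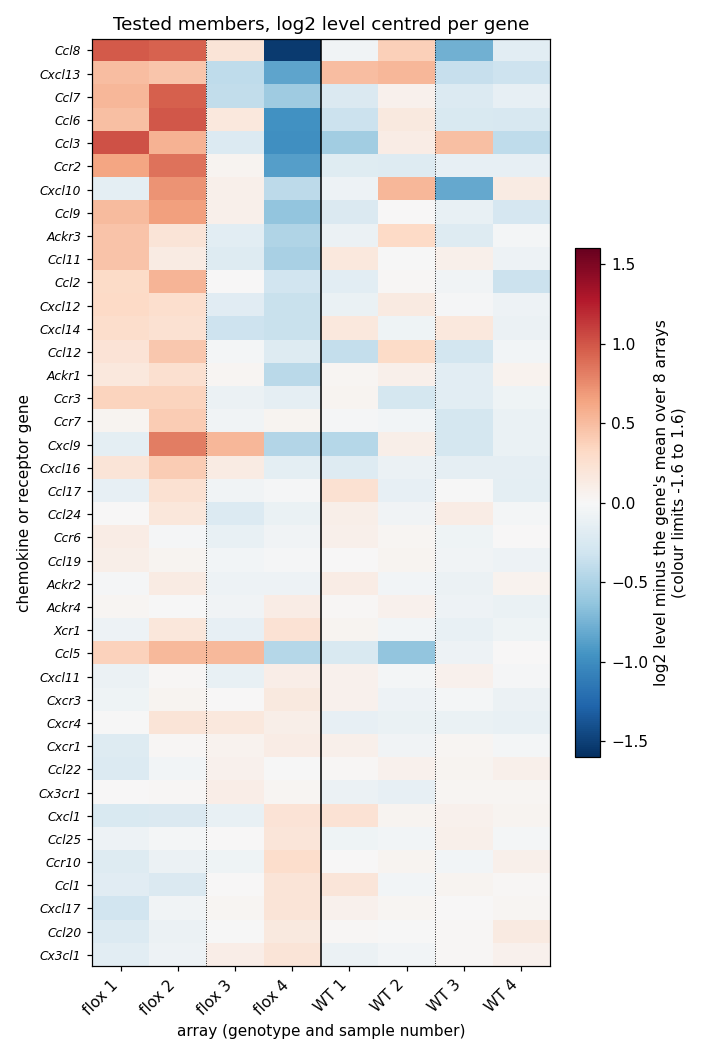
Heat map of the 40 tested chemokine and receptor genes (rows, ordered by their difference between sample numbers) on the 8 arrays (columns), coloured by the log2 level minus the gene's mean over the arrays. Most of the upper rows are red on flox arrays 1 and 2 and blue on flox array 4, though Cxcl10 is below its mean on flox array 1. Cxcl13 is red on numbers 1 and 2 of both genotypes.

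Cxcl13 separated the samples by number in both genotypes. Cxcl13 is the ligand of Cxcr5 and draws B cells and follicular helper T cells into lymphoid follicles. Flox arrays 1 and 2 gave log2 levels of 7.97 and 7.92, and flox arrays 3 and 4 gave 7.07 and 6.63. On the WT arrays it was 7.96 and 8.00 for numbers 1 and 2 and 7.11 and 7.14 for numbers 3 and 4. The 4 samples numbered 1 or 2 therefore lay within 0.1 of each other and above all samples numbered 3 or 4, whichever the genotype. The mean was 7.96 ± 0.03 (SD, n = 4) for numbers 1 and 2 and 6.98 ± 0.24 (SD, n = 4) for numbers 3 and 4, a difference of 0.98 (SE 0.09), or 1.97-fold. The limma adjusted p over all genes was 0.00737, with genotype as a second term in the model. Of all genes tested, 0.373% passed that threshold for the sample number, 56 genes in all, of which 32 were higher in numbers 1 and 2 (0.213%) and 24 lower (0.16%). Cxcl13 was the only 1 of the 40 members among them. The difference was 1.10 within flox samples (limma adjusted p 0.102) and 0.86 within WT samples (limma adjusted p 0.0116), where 0.06% and 0.0666% of all genes passed. It was 0.99 without WT array 2, where the limma adjusted p was 0.0563. The labels do not say what the number stands for.

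Values of several other gene lists are given beside Cxcl13, by sample number. Circadian clock genes were examined because they were already known to differ by number in these data, so their counts are a description and no independent support. Of 15 clock genes tested, 4 passed the adjusted threshold, all higher in numbers 1 and 2. These were Ciart, a repressor within the clock (7.36 to 8.15 in numbers 1 and 2, 6.26 to 6.33 in numbers 3 and 4, limma adjusted p 0.00641), the clock output factor Dbp (0.89, SE 0.09, limma adjusted p 0.00850), Per2 (0.42, SE 0.07, limma adjusted p 0.0473) and Per3 (0.50, SE 0.08, limma adjusted p 0.0469). Arntl, which encodes the activator BMAL1, differed by -0.56 (SE 0.10, limma adjusted p 0.0556). The 4 tested B cell markers went in different directions, with Cd79b at 0.15 (SE 0.07), Pax5 at 0.03 (SE 0.06), Ighm at -0.02 (SE 0.07) and Blk at -0.16 (SE 0.07), and had a summed intensity of 521 to 562 for numbers 1 and 2 and 521 to 546 for numbers 3 and 4. The list held 9 B cell markers, of which Cd79a, Ms4a1, Cr2 and Fcer2a had means below the intensity filter. Of 8 markers of lymph node stroma and vessels 4 were tested, of which 2 were higher and 2 lower in numbers 1 and 2, with a median difference of 0.03. They were Pdpn (0.44, SE 0.09, limma adjusted p 0.0637), Lyve1 (0.19, SE 0.11), Prox1 (-0.13, SE 0.09) and Madcam1 (-0.22, SE 0.11), while Glycam1, Chst4 and Fcamr lay below the filter. Macrophage markers were higher in numbers 1 and 2 for 10 of 10 genes, with 0 past the adjusted threshold and 7 at an unadjusted p under 0.05. Over all genes, 43.3% were higher in these numbers and 18.6% had such a p. The 7 mature fibre markers summed to 72922 to 74345 in numbers 1 and 2 and to 77134 to 79151 in numbers 3 and 4, without overlap. The part of these genes in the Cxcl13 difference was not tested.

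Other members differed by number with less separation, and none of them passed the adjusted threshold. In limma 15 of the 40 members (37.5%), with Cxcl13 counted among them, had an unadjusted p under 0.05, where 18.6% of all genes did. Of these 15, 13 including Cxcl13 were higher in numbers 1 and 2 (8.92% of all genes) and 2 lower (9.65% of all genes). Among the 13 were ligands of Ccr2 (Ccl2, Ccl7 and Ccl8), the eosinophil attractant Ccl11 with its receptor Ccr3, Ccl6 and Ccl9, the stromal ligands Cxcl12 and Cxcl14, Ccr7, and the atypical receptors Ackr1 and Ackr3. Leaving out flox array 2 gave 7 such members (14.2% of all genes) and leaving out flox array 1 gave 9 (15.2% of all genes). There were 20 within flox samples and 3 within WT samples (19.8% and 15.6% of all genes). The mean was higher in numbers 1 and 2 for 27 of the 40 members and for 43.3% of all genes, and the median difference was 0.12 over the members and -0.02 over all genes.

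Ccl8, a ligand of Ccr2 and Ccr8 made by tissue macrophages, had the largest difference by number. It lay at 9.64, 9.61, 8.87 and 7.13 on flox arrays 1 to 4 and 8.60, 9.04, 7.88 and 8.48 on WT arrays 1 to 4. Numbers 1 and 2 were 1.13 higher on average (SE 0.35, limma adjusted p 0.141), and 0.69 higher without flox array 4. The groups overlapped, since flox array 3 lay above WT array 1. Ackr3, which scavenges Cxcl12, was at 7.90, 7.65, 7.28 and 6.96 on flox arrays 1 to 4 and 7.36, 7.77, 7.24 and 7.42 on WT arrays 1 to 4. It differed by 0.44 (SE 0.13, limma adjusted p 0.125) and by 0.57 without WT array 1, where it passed (limma adjusted p 0.0432). WT array 1 was the only sample of numbers 1 and 2 that lay below a sample of the other numbers.

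Cxcl12 itself, the stromal ligand of Cxcr4, was at 9.57, 9.52, 9.07 and 8.90 on flox arrays 1 to 4 and 9.15, 9.39, 9.23 and 9.17 on WT arrays 1 to 4. Flox arrays 1 and 2 were the highest of the 8 and flox arrays 3 and 4 the lowest, with the WT arrays between them. The difference by number was 0.31 (SE 0.10, limma adjusted p 0.164). Ccl7, another monocyte attractant, was at 8.79, 9.23, 7.87 and 7.70 on flox arrays 1 to 4 and between 8.03 and 8.34 on the WT arrays, and differed by 0.66 (SE 0.21, limma adjusted p 0.149). In it too the flox arrays lay on either side of all WT arrays. The 6 fibroblast markers had centred means of 0.32, 0.04, 0.11 and -0.46 on flox arrays 1 to 4 and between -0.06 and 0.10 on the WT arrays, and their part in these levels was not tested.

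The other 13 tested members had a lower mean in numbers 1 and 2, and Cx3cl1 had the smallest p among them. Cx3cl1, the membrane-bound ligand fractalkine, was at 7.49, 7.59, 7.57 and 7.62 on the samples numbered 1 or 2 and at 7.77, 7.87, 7.68 and 7.73 on those numbered 3 or 4. These groups did not overlap, and the difference was -0.19 (SE 0.06, limma adjusted p 0.142). Its receptor Cx3cr1, carried by monocytes and macrophages, also did not overlap between the numbers, with a difference of -0.10 (SE 0.05, limma adjusted p 0.332). The remaining members named on this side were Ccl20, the ligand of Ccr6 (-0.15, SE 0.06), Ccl25, a thymic and gut ligand of Ccr9 (-0.12, SE 0.06), and Cxcl17 of mucosal tissue (-0.14, SE 0.09). In all, 5 of the 40 members did not overlap between the numbers, where 10.7% of all genes did not. They were Cxcl13 and Ccl19 on the higher side (4.54% of all genes) and Cx3cl1, Cx3cr1 and Ccl25 on the lower (6.21% of all genes).

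**Figure D2:**
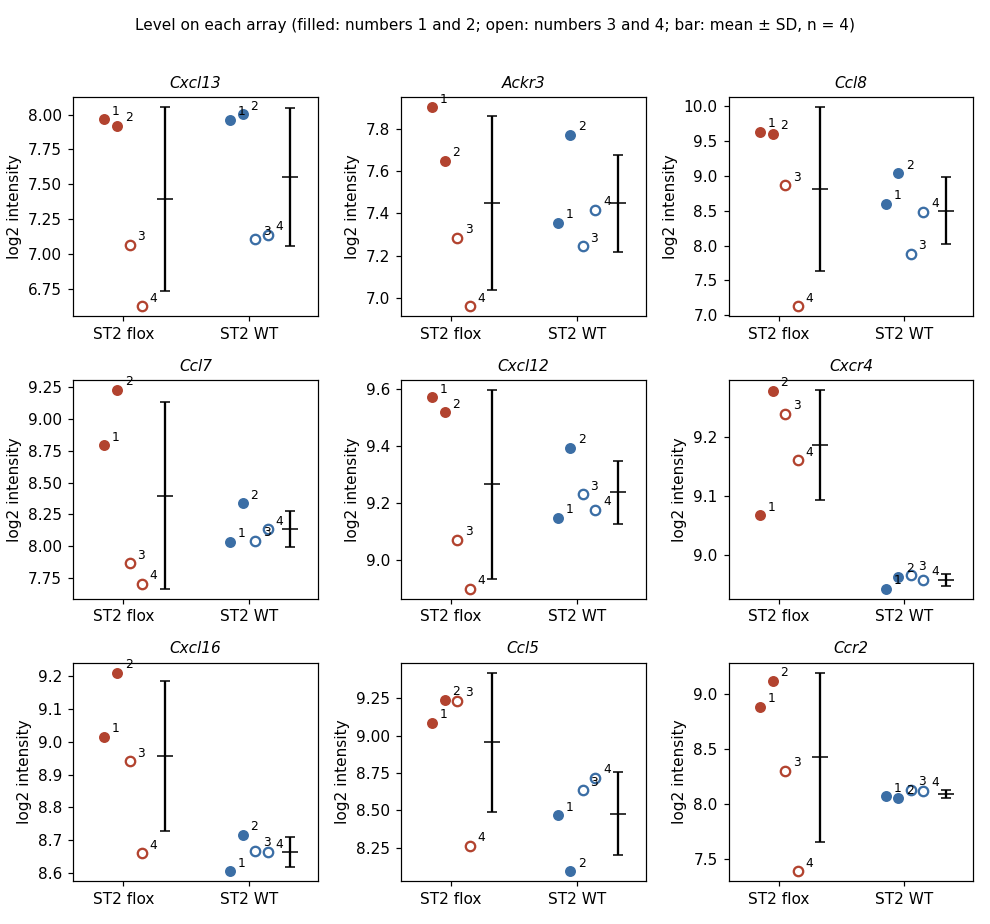
Log2 intensity of 9 members on each array, by genotype, with filled points for sample numbers 1 and 2, open points for numbers 3 and 4, the number beside each point and a bar for the mean ± SD of 4 arrays. Cxcl13 splits by number in both genotypes, and Ccl7, Cxcl12 and Ccr2 spread over the flox arrays far more than over the WT arrays. The Cxcr4 points do not overlap between genotypes (limma adjusted p 0.912).

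The upstream sequences of 4 of these genes are given because their levels showed the patterns above. Cxcl13 and Ccl8 had the largest differences by number, and Cxcl12 and Cxcr4 are a ligand and its receptor. Cxcl12 spread by number among flox samples and Cxcr4 did not overlap between genotypes, though neither passed the adjusted threshold. Each is the 250 bases before the RefSeq gene start in assembly GRCm38.p6, written 5′ to 3′ on the gene's strand, with matches to TATAAA or its reverse complement in capitals.
Cxcl13 (chr5:95956689-95956938, plus strand): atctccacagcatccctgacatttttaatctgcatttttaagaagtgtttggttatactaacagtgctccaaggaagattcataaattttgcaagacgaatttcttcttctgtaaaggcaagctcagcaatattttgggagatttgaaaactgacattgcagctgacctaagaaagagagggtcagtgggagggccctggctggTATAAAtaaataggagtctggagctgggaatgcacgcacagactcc
Ccl8 (chr11:82114935-82115184, plus strand): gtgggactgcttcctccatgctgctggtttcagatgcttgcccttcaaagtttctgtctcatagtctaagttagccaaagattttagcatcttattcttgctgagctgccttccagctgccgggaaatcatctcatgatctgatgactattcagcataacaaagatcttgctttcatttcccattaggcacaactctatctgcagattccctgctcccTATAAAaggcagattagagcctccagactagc
Cxcl12 (chr6:117168285-117168534, plus strand): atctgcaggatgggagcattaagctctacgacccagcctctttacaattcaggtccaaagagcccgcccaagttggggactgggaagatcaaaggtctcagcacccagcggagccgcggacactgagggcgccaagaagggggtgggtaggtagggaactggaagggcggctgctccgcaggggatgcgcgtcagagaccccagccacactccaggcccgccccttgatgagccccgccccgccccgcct
Cxcr4 (chr1:128592300-128592549, minus strand): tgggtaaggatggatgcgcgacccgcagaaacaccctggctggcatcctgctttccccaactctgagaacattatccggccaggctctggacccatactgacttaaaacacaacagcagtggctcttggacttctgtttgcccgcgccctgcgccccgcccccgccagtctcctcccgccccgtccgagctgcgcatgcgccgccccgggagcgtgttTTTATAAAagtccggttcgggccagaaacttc
The TATA box letters began 46 bases before the start in Cxcl13 and 32 bases before it in Ccl8. In Cxcr4 they were found on both strands, in overlapping matches beginning 32 and 30 bases before the start, and in Cxcl12 these letters were not in the window. The share of G and C was 42% in Cxcl13, 44.8% in Ccl8, 64.4% in Cxcl12 and 61.2% in Cxcr4, against a median of 52.4% over 32851 promoters.

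Of the 55 members 41 had an upstream sequence in the table, with 43 starts among them. On either strand, TATAAA was found in 13 of the 43 (30.2%, against 12.4% of all promoters) and the NF-kappaB letters GGG, 2 bases of any kind and TTTCC in 6 of them (14%, against 1.41%). The promoters with the NF-kappaB letters belonged to Ccl20, Ccl9, Ccr3, Cxcl1, Cxcl2 and Cxcl3, none of which is among the 4 shown. The interferon response letters TTTC, 2 bases of any kind and TTTC were in 3 of the 43 (6.98%, against 2.98%), at Ccl19, Cxcl10 and Cxcl14. The AP-1 letters TGANTCA were in 4 (9.3%, against 6.75%), the gamma-activated site TTCNNNGAA in 3 (6.98%, against 7.02%) and the E-box CACGTG in 2 (4.65%, against 6.02%). The D-box TTATGTAA was in 1 (2.33%, against 0.819%). A match is a description of the letters and not a site shown to be bound.

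For several inflammatory ligands and Ccr2 the samples spread by number among flox and hardly among WT arrays, but no member passed the adjusted threshold of the interaction. In limma 0 of the 40 members and 0% of all genes passed for the interaction, and 12 (30%) had an unadjusted p under 0.05, where 15.3% of all genes did. Of these 12, 9 had a more positive difference in flox (7.25% of all genes) and 3, namely Ccl1, Cxcl1 and Cxcl17, a more negative one (8.1% of all genes). The smallest p belonged to Ccl7, whose difference was 1.22 within flox and 0.10 within WT samples, 1.13 apart (SE 0.21, limma adjusted p 0.278). Cxcl14, a ligand made by stromal and epithelial cells, differed by 0.60 within flox and 0.01 within WT samples. Ccr2, the receptor that brings inflammatory monocytes into tissue, differed by 1.16 within flox and -0.06 within WT samples. It lay at 8.89, 9.12, 8.30 and 7.38 on flox arrays 1 to 4 and 8.05 to 8.13 on the WT arrays, which thus lay within 0.1 of each other and inside the flox range. Ccl3, a ligand of Ccr1, differed by 1.38 within flox samples and by -0.26 within WT samples. Each of these values compares 2 arrays with 2. The 5 markers of regenerating muscle had centred means of -0.32, 0.06, 0.18 and 0.24 on flox arrays 1 to 4 and between -0.07 and 0.01 on the WT arrays, and their part in these differences was not tested either.

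**Figure D3:**
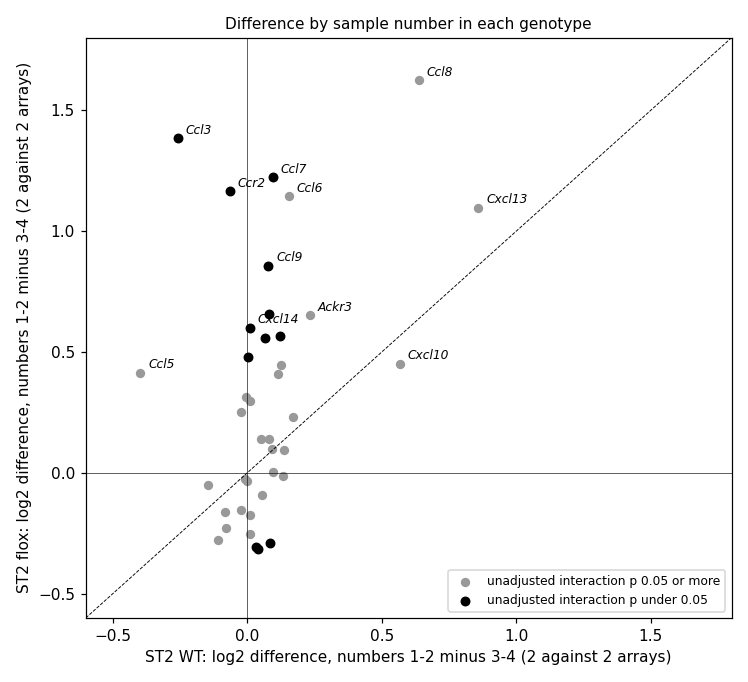
Difference in log2 level between sample numbers 1 and 2 and numbers 3 and 4 within ST2 WT (horizontal) and within ST2 flox (vertical) for the 40 tested members, each from 2 against 2 arrays, with equal differences on the dashed line. Cxcl13 (0.86 and 1.10) lies near the line, while Ccl7, Ccr2 and Ccl3 lie between -0.26 and 0.10 for WT and above 1 for flox.

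Between genotypes no member passed the adjusted threshold, and the clearest difference was in Cxcr4. In limma 0 of the 40 members and 0% of all genes passed 0.05 after adjustment, and 3 members (7.5%) had an unadjusted p under 0.05, where 3.79% of all genes did. All 3 were higher in flox (2.03% of all genes), and none was lower (1.77% of all genes). Cxcr4, the receptor of Cxcl12 on lymphocytes, monocytes and progenitor cells, was at 9.07, 9.28, 9.24 and 9.16 on flox arrays 1 to 4 and at 8.94, 8.96, 8.97 and 8.96 on WT arrays 1 to 4. All flox arrays lay above all WT arrays. The means were 9.19 ± 0.09 and 8.96 ± 0.01 (SD, n = 4 each), a difference of 0.23 (SE 0.06) or 1.17-fold, with a limma adjusted p of 0.912. It was of the same size within numbers 1 and 2 (0.22) and within numbers 3 and 4 (0.24). Cxcr4 was the only 1 of the 40 members whose genotypes did not overlap, where 1.97% of all genes did not, 1.14% with flox higher and 0.826% with flox lower.

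The other pair of members was Cxcl16 and Ccl5. Cxcl16, the ligand of Cxcr6 that macrophages and dendritic cells display, was at 9.02, 9.21, 8.94 and 8.66 on flox arrays 1 to 4 and 8.60 to 8.72 on the WT arrays. Flox array 4 thus lay within the WT range, and the difference was 0.29 (SE 0.10, limma adjusted p 0.912). Ccl5, a T cell attractant made by T and natural killer cells among others, was at 9.09, 9.24, 9.23 and 8.26 on flox arrays 1 to 4 and at 8.47, 8.09, 8.64 and 8.72 on WT arrays 1 to 4. Its difference was 0.48 (SE 0.21, limma adjusted p 0.912), 0.71 without flox array 4, and 0.88 within numbers 1 and 2 against 0.07 within numbers 3 and 4. Of 10 T cell markers 7 were tested, 6 with a higher mean in flox, from 0.85 for Cd3g to -0.05 for Cd247. Their summed intensity was 869 to 1108 on flox and 829 to 855 on WT arrays. Flox array 4, where Ccl5 was below 3 of the 4 WT arrays, had a T cell sum above all of them. Single T cell markers were split on that array, which had the lowest Cd3g (6.27) and the highest Cd5 (7.24) of the 8 arrays. Of 7 natural killer and cytotoxic markers 3 were tested, 2 with a higher mean in flox, and they summed to 401 to 573 on flox and 387 to 419 on WT arrays. Among these, Nkg7 had its lowest level of the 8 arrays on flox array 4 (7.29), while Gzmk on that array exceeded every WT array. The part of these cells in the Ccl5 and Cxcr4 differences was not tested.

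Further members with a smaller p on the higher side were Ccr7, which guides T cells and dendritic cells to lymph nodes (0.22, SE 0.10), and the eosinophil receptor Ccr3 (0.24, SE 0.13). Ccr7 was at 7.71, 8.07, 7.61 and 7.71 on flox arrays 1 to 4 and 7.65, 7.62, 7.37 and 7.55 on WT arrays 1 to 4, and its difference was 0.13 without flox array 2. On the lower side the smallest p belonged to the neutrophil attractant Cxcl1, at 6.88, 6.89, 7.01 and 7.35 on flox arrays 1 to 4 and 7.36, 7.17, 7.20 and 7.17 on WT arrays 1 to 4 (-0.19, SE 0.10). It was followed by the Ccr4 ligand Ccl22 (-0.10, SE 0.07), Ccl1 (-0.10, SE 0.10), Ccl20 (-0.08, SE 0.08) and Ccl24 (-0.07, SE 0.09). Ccl22, Ccl1, Ccl20 and Ccl24 were dim, with mean levels of 6.49 to 6.86 against the filter of 6.35. With quantile normalization their differences were smaller, at -0.04 to -0.06. All members from Ccr7 to Ccl24 in this list had a limma adjusted p of at least 0.912 in the main fit. By role, the flox mean was the higher one in 11 of 16 CC ligands, 4 of 9 CXC ligands, 7 of 10 receptors and 3 of 4 atypical receptors. Over all 40 members it was higher in 26, and in 48.8% of all genes, and the median difference was 0.04, against -0.00249 over all genes.

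The genotype values depended on the samples compared. Without flox array 4, 14 of the 40 members had an unadjusted p under 0.05, 11 higher and 3 lower in flox, where 20.1% of all genes did, and the smallest limma adjusted p was 0.122. Within numbers 1 and 2 there were 15 such members (24% of all genes), and Ccr2 passed with a difference of 0.95 (SE 0.09, limma adjusted p 0.0397), as did 0.0533% of all genes. Within numbers 3 and 4 there were 5 (3.31% of all genes), and the difference of Ccr2 was -0.28. Ccl8 likewise differed by 0.80 within numbers 1 and 2 and by -0.18 within numbers 3 and 4, against 0.31 (SE 0.49) over all samples.

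**Figure D4:**
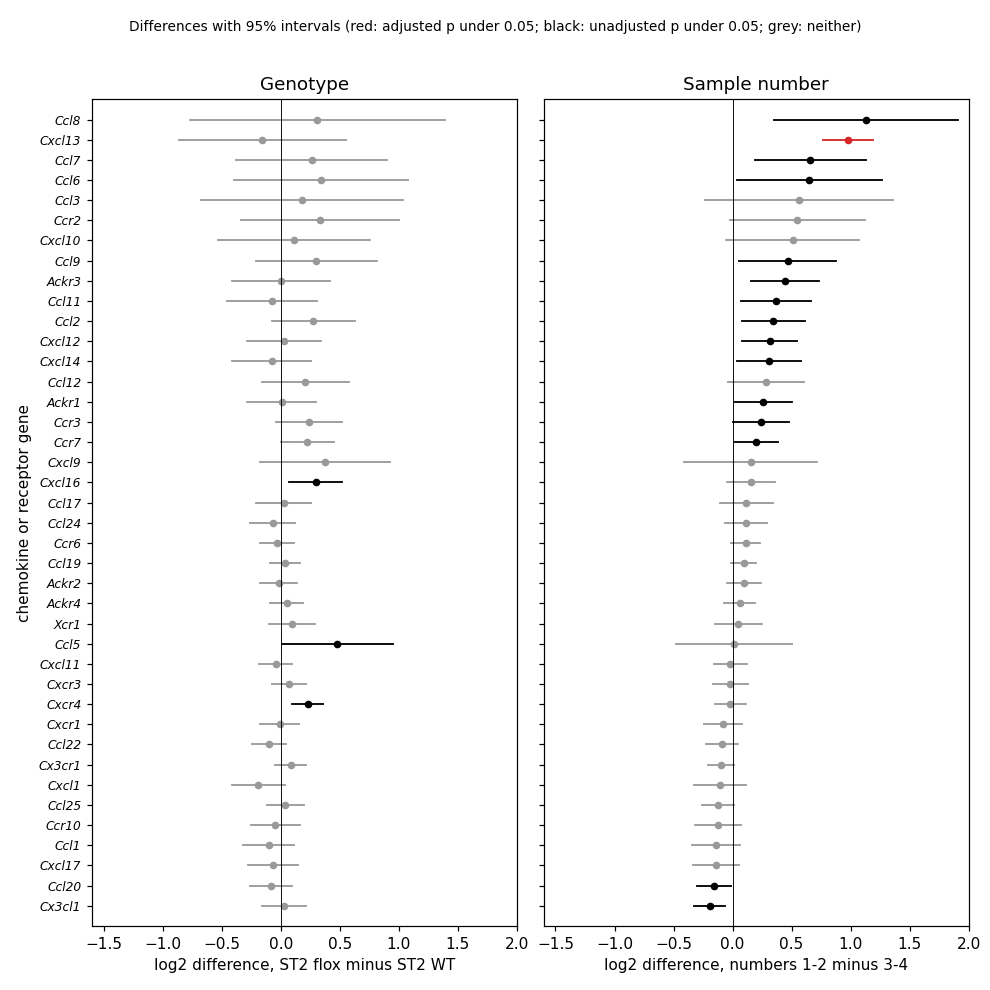
Log2 differences of the 40 tested members with 95% intervals from limma, flox minus WT on the left and numbers 1 and 2 minus numbers 3 and 4 on the right, in red where the adjusted p was under 0.05, in black where only the unadjusted p was, and in grey otherwise. Cxcl13 on the right is the only red gene, and Cxcr4, Cxcl16 and Ccl5 are black on the left.

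Ligands and their receptors did not always vary alike. Of 39 textbook pairs of ligand and receptor, both sides were tested in 14. The difference by genotype was 0.23 for Cxcr4 and 0.03 (SE 0.14) for its ligand Cxcl12. By number it was 0.31 for Cxcl12 and -0.02 (SE 0.06) for Cxcr4. None of these values passed the adjusted threshold. Ccr2 and its ligands Ccl2, Ccl7, Ccl8 and Ccl12 were all highest on flox array 1 or 2. Their differences by number were 0.55 for Ccr2 (SE 0.25), 0.34 for Ccl2 (SE 0.12) and 0.29 for Ccl12 (SE 0.14), beside those of Ccl7 and Ccl8 above.

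The receptor Cxcr3 of activated T cells lay between 7.23 and 7.47 on all 8 arrays, while its interferon-induced ligands spread further. Cxcl9 was lowest on flox array 4 (8.78) and highest on flox array 2 (10.07). Cxcl10 was lowest on WT array 3 (7.94) and again highest on flox array 2 (9.48). The third ligand, Cxcl11, ranged only from 6.53 to 6.75. Cxcl9 differed by genotype by 0.37 (SE 0.25) and Cxcl10 by number by 0.51 (SE 0.25), with limma adjusted p of 0.912 and 0.311. A further pair was the eosinophil attractant Ccl11 with its receptor Ccr3. Ccl11 was at 9.73, 9.41, 9.07 and 8.75 on flox arrays 1 to 4 and 9.19 to 9.44 on the WT arrays. Ccr3 was, in the same order, at 7.01, 7.00, 6.55 and 6.50 and at 6.37 to 6.69. In both genes, flox array 1 was highest of all. Of 7 eosinophil and mast cell markers 5 were tested, and 4 of them were higher in numbers 1 and 2, where 43.3% of all genes were. These 4 were the mast cell genes Cma1, Mcpt4, Tpsb2 and Cpa3 (0.09 to 0.64). The only eosinophil marker tested, Siglecf, was not higher (-0.03, SE 0.07), and its lowest level was on flox array 1 (7.13). Epx and Prg2 lay below the filter. The part of eosinophils in the Ccl11 and Ccr3 levels was not tested.

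Many of the CC ligands are neighbours in the genome. Of the 55 members, 14 lay on chromosome 11 in the RefSeq annotation of GRCm38.p6. There Ccl2, Ccl7, Ccl11, Ccl12, Ccl8 and Ccl1 followed one another with at most 1 other gene between neighbours, and Ccl5, Ccl9, Ccl6, Ccl3 and Ccl4 with at most 2. In the first cluster the difference by number was positive for Ccl2, Ccl7, Ccl11, Ccl12 and Ccl8 (0.29 to 1.13) and -0.14 (SE 0.09) for Ccl1. In the second it was 0.47 (SE 0.18) for Ccl9, 0.65 (SE 0.27) for Ccl6 and 0.56 (SE 0.35) for Ccl3, but 0.01 (SE 0.22) for Ccl5.

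The 15 members below the intensity filter were Ccl4, Ccl26, Ccl28, Ccr1, Ccr4, Ccr8, Ccr9, Cxcl2, Cxcl3, Cxcl5, Cxcl15, Cxcr2, Cxcr5, Cxcr6 and Xcl1, with means of 4.93 to 6.34 against a filter of 6.35. Among them Cxcr2, Ccr1, Cxcl2 and Cxcl5, which serve neutrophil and monocyte entry, varied most. The neutrophil receptor Cxcr2 was at 6.54, 7.10, 5.30 and 5.07 on flox arrays 1 to 4 and 5.27, 6.07, 5.25 and 5.44 on WT arrays 1 to 4. Ccr1, a receptor of Ccl3 and related ligands on monocytes and neutrophils, was at 6.78, 6.77, 5.90 and 5.08 and at 5.65, 6.21, 5.52 and 5.70. Both were highest on flox arrays 1 and 2, followed by WT array 2. The Cxcr2 ligand Cxcl2 was at 6.95, 6.70, 6.06 and 5.58 on flox arrays 1 to 4 and 5.61, 6.85, 6.01 and 5.93 on WT arrays 1 to 4. In a fit without the filter the differences by number were 0.98 for Cxcr2 (SE 0.27, limma adjusted p 0.156), 0.80 for Ccr1 (SE 0.23, limma adjusted p 0.160), 0.63 for Cxcl2 (SE 0.25, limma adjusted p 0.283) and 0.46 for Cxcl5 (SE 0.15, limma adjusted p 0.195). Of 9 neutrophil markers 5 were tested, and 2 of them were higher and 3 lower in numbers 1 and 2, with a median difference of -0.0076. Csf3r, the marker with the largest difference, was at 8.54, 8.70, 7.64 and 7.45 on flox arrays 1 to 4 and 7.54 to 7.86 on the WT arrays. S100a9 differed by 0.30 (SE 0.13), Camp by -0.19 (SE 0.09), Mpo by -0.02 (SE 0.08) and Elane by -0.01 (SE 0.07), while S100a8, Ly6g, Ngp and Retnlg lay below the filter. The part of neutrophils in these levels was not tested. Cxcr5, the receptor of Cxcl13, stayed between 5.07 and 5.45 on all arrays.

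**Figure D5:**
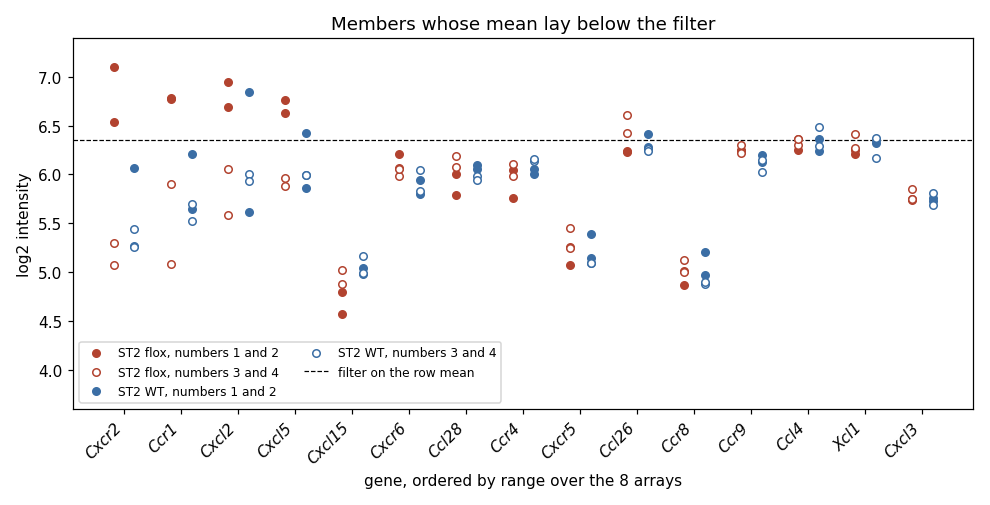
Log2 intensity on each array of the 15 members whose mean lay below the filter (dashed line, 6.35), by genotype and with filled points for sample numbers 1 and 2 and open points for numbers 3 and 4. Cxcr2, Ccr1, Cxcl2 and Cxcl5 lie above the line on flox arrays 1 and 2, whereas the other genes vary little.

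Genes that act with the receptors were compared in the same fits. Of 48 entries for G proteins, kinases, arrestins, regulators and related ligands 42 were tested, and 0 passed the adjusted threshold by genotype or by number. By number 37 of the 42 were higher in numbers 1 and 2 (43.3% of all genes), with a median of 0.15 against -0.02 over all genes. Of the 42, 15 had an unadjusted p under 0.05, all higher (8.92% of all genes higher, 18.6% in either direction). By genotype 36 were higher in flox (48.8% of all genes). Such a p was found for 2, all higher (2.03% of all genes higher, 3.79% in either direction). The largest differences by number were those of the platelet chemokines Ppbp and Pf4, which belong to the CXC family under older names. Ppbp was at 8.79, 9.24, 7.09 and 7.24 on flox arrays 1 to 4 and 7.51, 8.43, 7.00 and 7.51 on WT arrays 1 to 4, a difference of 1.28 (SE 0.27, limma adjusted p 0.0637). Pf4 was at 9.48, 9.74, 8.62 and 8.15 and at 8.78, 9.36, 8.45 and 8.58, a difference of 0.89 (SE 0.18, limma adjusted p 0.0628). The numbers did not overlap in 3 of the 42 genes, all higher in numbers 1 and 2 (4.54% of all genes). Pf4 and Ppbp were among these, although in Ppbp WT arrays 1 and 4 lay at almost the same level. By genotype the smallest p belonged to the haematopoietic small GTPase Rac2 (0.23, SE 0.09) and the myeloid kinase Fgr (0.21, SE 0.09). Others that carry the receptor signal to the cytoskeleton, such as Dock2 and Elmo1, differed by number by 0.35 (SE 0.12) and 0.24 (SE 0.08).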

How the data were processed

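The 8 samples were measured on whole-transcript Affymetrix arrays. The values the authors deposited are linear probeset intensities, and the submitters' processing notes name RMA and Affymetrix Power Tools. Their versions, the genome build and any row filter were not given in the sources used here. RMA compresses differences of dim probesets and forces the arrays to similar distributions. The number of arrays limits the precision.

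Values were put on the log2 scale with no pseudocount. Gene names came from the platform annotation: of 24922 rows 21425 had 1 symbol, 1399 several and 2098 none. Rows with a mean below the 25th percentile (log2 6.35) were left out and the brightest row per gene was kept. Differences, standard errors and p-values came from limma 3.58.1 in R 4.3.3, fitted over all 15007 genes with Benjamini-Hochberg adjustment and a threshold of 0.05. The genotype model had genotype alone, the number model genotype and number (1 and 2 minus 3 and 4), and the interaction both and their product. The fits were tested on simulated data. No 2 arrays shared more than 14 identical values. Alternatives were normalization, filter, pseudocount, rows per gene, prior, blocks and left-out arrays.

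Members named were Cxcl13, Cxcr4, Ccl5 and Ccl8, any past the threshold, the 5 per direction with the smallest p by genotype and by number, the 5 with the widest range, the 3 with the smallest interaction p, and their ligands or receptors. Ccl9, Ccl19 and the members below the filter were named after their values were seen, as were single genes of the other lists. The members and lists were chosen with earlier results of these data known. Ccl21 and Ccl27 are not analysed here, nor are rows with several symbols. Promoter sequences came from RefSeq, with the 50 bases after the start left out.

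Same-numbered samples had correlations of their deviations from the group means of -0.00174 to 0.352, over 0.1 in 2 of 4 pairs, so the number was not taken to pair them.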

Additional observations from a re-analysis of the deposited data

Results flagged for a closer look

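In 2 of 48 groups of 4 samples, covering the named members in each genotype, 1 sample stood apart from the others by Dixon's criterion, and chance flags about 1 in 20 groups. Ccl5 on flox array 4 was at 8.26, below the next flox array at 9.09, with a gap of 0.840 of the whole range. Cxcl1 on WT array 1 was at 7.36, above the next WT array at 7.20, with a gap of 0.838 of the whole range.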

How the results depend on the processing

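Of 27 named differences, 19 kept their direction under all alternatives run, Cxcl13 by number among them (0.82 to 1.10). Its call was lost within flox samples and without WT array 2, and with the filter at the 50th percentile it was not tested, so 0 members passed there. By number 0 members passed within flox samples, and leaving out single arrays gave 0 to 2. With the sample number as a random block 2 passed, Cxcl13 and Ackr3 (limma adjusted p 0.00178 and 0.0443). The share of all genes that passed was not counted for the random block or without single arrays. The fitted correlation within a number was negative with the random block (-0.218), and the SE of Ackr3 was 0.10 against 0.13 in the main fit. By genotype 1 member, Ccr2, passed within numbers 1 and 2. Members at an unadjusted p under 0.05 by genotype numbered 15 within numbers 1 and 2 (24% of all genes). There were 5 within numbers 3 and 4 (3.31% of all genes). They numbered 5 without the filter, where 55 members were tested, and 5 with the numbers 1 and 2 against 3 and 4 as a block. Without single arrays they were 2 to 14, with 14 without flox array 4 (20.1% of all genes). By number they were 3 within WT samples (15.6% of all genes). Without single arrays they were 7 to 18, with 7 without flox array 2 (14.2% of all genes). For the interaction they were 7 with the filter at the 50th percentile, where 21 members were tested. In the other settings the share of all genes with such a p was not counted, so those counts say nothing particular to the members. By genotype, Ccl1 turned to 0.074, Ccl8 to -0.18 and Ccr3 to -0.00088 within numbers 3 and 4, Ccl24 to 0.068 within numbers 1 and 2, and Cxcl13 lay between -0.35 and 0.10 without single arrays. By number, Ccl5 turned to -0.013 with quantile normalization, -0.0029 with cyclic loess and -0.40 within WT samples, and lay between -0.27 and 0.17 without single arrays. Cxcl17 turned to 0.032 within WT samples, and Cxcr4 lay between -0.058 and 0.026 without single arrays. The cause of these changes was not tested. With the sample number as a fixed block, 0 members passed by genotype and 4 had an unadjusted p under 0.05.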

Other observations

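Ccl19, a ligand of Ccr7 made by lymphoid stroma, had 4 rows, and the mouse genome holds near-identical copies of it, so its probes may pick up RNA of the copies. The 4 rows gave differences by number of 0.09 to 0.11 and by genotype of 0.03 to 0.04. Ccl25 had 2 rows, with differences by number of -0.12 and -0.13.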
